A study of Mus musculus with 2 samples.

Results

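Small nucleolar RNA (snoRNA) host genes were described in CMT167R mouse cells with and without a compound that the labels call PKCi. The genes were chosen by symbol, as the rows named Gas5, Snhg1, Snhg3, Snhg4, Snhg5, Snhg6, Snhg8, Snhg12, Snhg15 and Snhg18. All 10 were found among the 54532 genes of the deposited table. The cells derive from the mouse lung carcinoma line CMT167 and, per the labels, resist anti-PD1, an antibody against a T cell inhibitory receptor. Both groups were CMT167R cells, 1 left untreated (CON) and 1 given 50 nM PKCi for 24 h. The labels name neither the compound nor the number of clones behind the line. Each group was 1 library, so differences have no replicate check and carry no p-value, and all 95% intervals describe counting error alone.

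A snoRNA host gene carries snoRNAs in its introns. After splicing, the introns are trimmed to mature snoRNAs, which guide chemical modification of ribosomal RNA. Box C/D snoRNAs guide ribose methylation and box H/ACA snoRNAs guide pseudouridylation. The spliced exons of these noncoding hosts are often short-lived, since ribosomes engage them and nonsense-mediated decay (NMD) removes them. Several hosts belong to the TOP genes, whose messages start with a C and a run of pyrimidines and whose translation follows growth signals. Gas5 was named for its accumulation in growth-arrested mouse fibroblasts.

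Gene counts summed to 16090186 (CON) and 16071153 (PKCi), and levels are counts scaled to a total of 1000000 (CPM), so that 16.1 counts made 1 CPM. With 0 counts, a level of up to 0.186 (CON) or 0.187 CPM (PKCi), the worth of 3 counts, remained possible. Of 8 epithelial markers 7 reached 1 CPM, with keratin 8 (Krt8) at 933 and 1182 CPM. Summed leukocyte markers stood at 10.6 (CON) and 6.72 CPM (PKCi), and 4 of 7, among them Ptprc, had 0 counts in both. Summed fibroblast markers were at 11.9 and 11.5 CPM. Of the 3 fibroblast markers that reached 1 CPM, 2 were higher and 1 lower with PKCi, so the sums hide opposite differences. Summed endothelial markers were at 0.621 and 1.18 CPM, and retina markers at 0.186 and 0.0622 CPM. In such bulk samples, fewer cells of a kind and less RNA per cell cannot be told apart.

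The table lists 33 snoRNA genes lying whole inside the 10 host spans on the same strand. Gas5 holds 10 of them, Snhg1 8 and Snhg12 5, while Snhg3, Snhg4 and Snhg5 hold 2 each and the other hosts 1 each. Snord80 in Gas5 and Snora16a in Snhg12 are each listed at 2 overlapping positions, and a gene in Gas5 and one in Snhg4 carry microRNA symbols (Mir5117 and Mir1949) although their biotype is snoRNA. The letters of the boxes were searched in the GENCODE M21 transcript of each snoRNA. Box C letters (TGATGA) within the first 20 bases together with box D letters (CTGA) within the last 20 were found in 18 of 33, against 20.5% of all 1507 snoRNA transcripts. The letters ACA within the last 12 bases of a snoRNA of at least 120 bases, without the box C and D letters, were found in 8 of 33, against 39.1% of all. Neither pattern was found in 7. Only the given strand was searched, and a match is a description of letters.

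A snoRNA from each of 4 hosts is shown, with both copies for Snhg5, to make plain what these genes carry. Capitals mark the box C and D letters in the Snord genes and the ACA letters in the Snora genes.
Snord47 in Gas5: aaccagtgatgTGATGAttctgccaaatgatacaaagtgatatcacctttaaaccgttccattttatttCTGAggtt
Snord50a in Snhg5: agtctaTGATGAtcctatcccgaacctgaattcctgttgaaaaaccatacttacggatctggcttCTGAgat
Snord50b in Snhg5: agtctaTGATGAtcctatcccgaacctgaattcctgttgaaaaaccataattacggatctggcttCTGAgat
Snora24 in Snhg8: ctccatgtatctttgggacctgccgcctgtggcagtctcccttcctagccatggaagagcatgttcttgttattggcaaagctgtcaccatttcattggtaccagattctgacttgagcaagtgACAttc
Snora9 in Snhg15: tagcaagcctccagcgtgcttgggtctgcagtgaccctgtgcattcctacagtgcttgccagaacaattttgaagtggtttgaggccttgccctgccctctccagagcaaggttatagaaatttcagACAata
The 2 snoRNAs of Snhg5 are 72 bases long and differ at 1 position, written C50A from Snord50a to Snord50b and counted from the 5′ end.

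**Figure D1:**
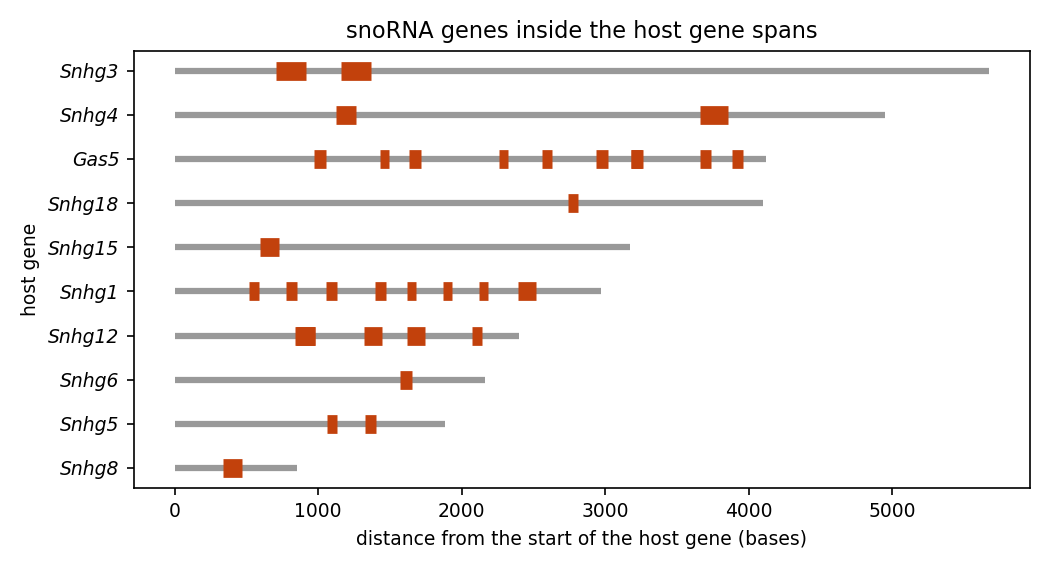
Map of the 10 host genes, each drawn from its own start (x axis, distance in bases; grey lines, host spans; orange blocks, the 33 snoRNA genes inside them). Gas5, Snhg1 and Snhg12 hold 10, 8 and 5 of the snoRNA genes, and overlapping copies of 1 snoRNA are drawn on top of each other.

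None of these 33 snoRNA genes had a count in either library. Over the whole table, 112 of 1507 snoRNA genes had a count in the untreated library and 119 in the PKCi library. Mature snoRNAs have no poly(A) tail, and the labels name a messenger RNA kit. In GENCODE M21, where the joined exons of the hosts other than Snhg4 have the lengths that the deposited table lists, the exons of Gas5 transcripts cover 669 of the 669 snoRNA bases inside it. Transcripts annotated as keeping an intron make up 20 of 25 for Gas5 and 14 of 18 for Snhg1. The exons of Snhg1 cover the whole 2969 bases of its span and those of Gas5 91.3% of 4118 bases. Host exons also cover every snoRNA base inside Snhg1, Snhg5, Snhg8, Snhg12 and Snhg15, but 159 of 410 inside Snhg3, 0 of 87 inside Snhg6 and 0 of 71 inside Snhg18. Where host exons cover a snoRNA, a read over it can belong to 2 listed genes, and spliced and unspliced host RNA cannot be told apart. The values below thus describe host transcripts and give no level for any snoRNA.

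For the promoters, RefSeq sequences on GRCm38.p6 were matched by symbol for 8 of the 10 genes. The 60 bases from 40 before to 20 after the start site are shown for hosts whose start letters are described next. Capitals mark the letters TATA where they lie 40 to 21 bases before the start, and a C with the run of pyrimidines after it where the start site has one.
Gas5, downstream start, chr1:161035126-161035185, plus strand: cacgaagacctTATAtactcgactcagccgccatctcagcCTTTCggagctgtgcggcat
Snhg8, chr3:123508317-123508376, minus strand: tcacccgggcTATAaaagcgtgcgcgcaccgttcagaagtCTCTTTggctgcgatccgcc
Snhg12, chr4:132308638-132308697, plus strand: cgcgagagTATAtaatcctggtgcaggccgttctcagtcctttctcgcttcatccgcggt
Snhg1, chr19:8723447-8723506, plus strand: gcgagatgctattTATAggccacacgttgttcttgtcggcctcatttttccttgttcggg
Snhg5, chr9:88522878-88522937, minus strand: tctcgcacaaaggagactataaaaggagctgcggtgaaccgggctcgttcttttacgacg
Snhg15, chr11:6528741-6528800, minus strand: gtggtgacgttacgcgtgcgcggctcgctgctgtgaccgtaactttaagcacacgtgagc

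A C followed by 4 pyrimidines stood exactly at a listed start of 2 of the 8 genes, Gas5 and Snhg8, and at 2.51% of all 32851 promoter entries. The letters TATA on the gene's strand, 40 to 21 bases before the start, stood in 4 of the 8 genes (Gas5, Snhg1, Snhg8 and Snhg12) and in 5.34% of all entries. This search was added after the sequences had been seen. The tata letters of Snhg5 run past the near edge of that window and were not counted. CACGTG, searched over 300 bases (it reads alike on both strands), stood in 1 of the 8, Snhg15, and in 7.15% of all entries. Gas5 has another listed start farther upstream, which has neither the C and pyrimidines nor TATA. Members were thus counted as genes with the letters at any listed start, but all promoters as single entries. The starts shown are annotated ones, and the counts do not tell which start was used.

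In the PKCi library 7 of the 8 measured host genes were lower and Gas5 was higher. Snhg4 was the lowest relative to the untreated library, at 2.97-fold lower, and Snhg15 followed at 1.88-fold lower. Snhg5, Snhg6 and Snhg12 were each about 1.5-fold lower, Snhg8 and Snhg1 were lower by less, and Gas5 was 1.14-fold higher. The median log2 ratio over the 8 genes was −0.52, where the median over all 12273 measured genes, those that reached 1 CPM in either library, was −0.01. Log2 ratios here are log2((PKCi + 1)/(CON + 1)) in CPM, and folds are CPM ratios with nothing added.

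**Figure D2:**
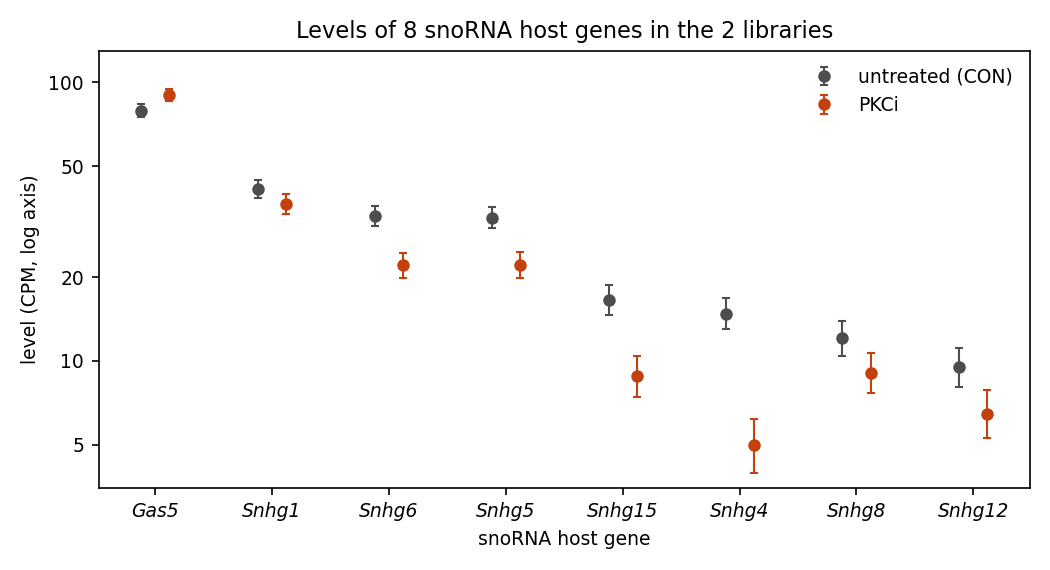
Level of the 8 measured snoRNA host genes (y axis, CPM on a log axis; grey, untreated library; orange, PKCi library; bars, exact Poisson 95% intervals of the count). Gas5 is higher in the PKCi library, at 90.2 CPM against 79.2, and the other 7 are lower in the PKCi library.

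Gas5 (ENSMUSG00000053332, GRCm38 chr1:161034422-161038539, plus strand), whose human counterpart gives an RNA known to bind the glucocorticoid receptor, had the most counts of the 10. It had 1274 counts untreated and 1449 with PKCi, or 79.2 and 90.2 CPM. Its fold was 1.14 (95% interval 1.06 to 1.23), a difference larger than counting error between these 2 libraries. Its interval did not overlap that of any of the other 7 measured members.

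Snhg1 (chr19:8723475-8726443, plus strand), a host of box C/D snoRNAs, had 668 and 589 counts (41.5 and 36.6 CPM). It was 1.13-fold lower with PKCi (95% interval 1.01 to 1.27). Of the 7 lower genes it lay nearest to no difference, and its interval ended just short of 1.

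Snhg5 (chr9:88521050-88522929, minus strand), the host of the 2 Snord50 genes shown above, had 526 and 355 counts (32.7 and 22.1 CPM). It was 1.48-fold lower (95% interval 1.29 to 1.70). Snhg6 (chr1:9941959-9944118, minus strand), which hosts Snord87, had 534 and 354 counts (33.2 and 22.03 CPM). It was 1.51-fold lower (95% interval 1.31 to 1.73), and the intervals of these 2 hosts overlapped.

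Snhg12 (chr4:132308623-132311024, plus strand), a host with snoRNA genes of both classes, had 153 and 104 counts (9.51 and 6.47 CPM). It was 1.47-fold lower (95% interval 1.14 to 1.90). Snhg8 (chr3:123507552-123508404, minus strand), the host of Snora24, had 194 and 146 counts (12.1 and 9.08 CPM). It was 1.33-fold lower (95% interval 1.07 to 1.66), so the intervals of Snhg8 and Snhg12 overlapped.

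Snhg15 (chr11:6525591-6528760, minus strand), which hosts Snora9, had 267 and 142 counts (16.6 and 8.84 CPM). It was 1.88-fold lower (95% interval 1.53 to 2.32). Snhg4, which hosts Snora74a, had 238 and 80 counts (14.8 and 4.98 CPM) and was 2.97-fold lower (95% interval 2.30 to 3.88). Gm28285, with 14 and 9 counts, overlaps 4913 of the 4946 bases of the Snhg4 span on the same strand. Reads of these 2 genes cannot be told apart where they overlap, and how such reads were counted is not known. Shared exon bases could not be checked, since Snhg4 was not found in GENCODE M21. The counts of Snhg4 may therefore be incomplete. The fold intervals of Snhg15 and Snhg4 both excluded 1, and they overlapped each other.

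Snhg18 and Snhg3 did not reach 1 CPM in either library. Snhg18, the host of Snord123, had 0 counts in both libraries. Snhg3, the host of the H/ACA-class Snora73a and Snora73b that act in ribosomal RNA cleavage, had 0 counts untreated and 2 with PKCi, both under the floor of 3 counts, so no fold is given. Snhg3 lies in the start region of Rcc1 (a nuclear exchange factor for Ran) on the same strand, and the listed starts are 81 bases apart. In GENCODE M21, exons of Rcc1 share 13.7% of the exon bases of Snhg3, and exons of the opposite-strand gene Gm17300 face 71.5% of them. Rcc1 had 1834 and 1079 counts (1.70-fold lower, 95% interval 1.57 to 1.83), and which of these reads came from the Snhg3 RNA cannot be told apart in the table.

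Of the 8 measured genes, 7 had a log2 ratio below 0, as did 50.8% of all 12273 genes. All 7 also had a counting interval of the fold wholly below 1, which held for 37.5% of all genes, and Gas5 had one wholly above 1, which held for 34.9%. At least 1.5-fold lower on the log2 ratio scale were 2 of 8 (16.7% of all genes), and at least 2-fold lower was 1 of 8, Snhg4 (5.13% of all genes). Snhg6 was past 1.5-fold as a plain ratio but not on that scale. No member was at least 1.5-fold higher (16.8% of all genes) or at least 2-fold higher (6.53% of all genes). Snhg4, at a log2 ratio of −1.40, and Snhg15, at −0.84, thus account for every member past a fold size, and the shares past 1.5-fold and 2-fold rest on few genes.

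By fold the order was Gas5, Snhg1, Snhg8, Snhg12, Snhg5, Snhg6, Snhg15 and Snhg4, from higher to lower. Of 28 pairs, 15 had intervals that did not overlap. Among neighbours in the order, only Gas5 and Snhg1 had intervals apart. Snhg1 lay apart from Snhg5, Snhg6, Snhg15 and Snhg4, and Snhg4 lay apart from every member but Snhg15.

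Per length the order of levels differed between the libraries. In CPM per kilobase of the listed gene length, Snhg6 led in the untreated library at 29.0, before Gas5 at 21.1 and Snhg5 at 18.9. In the PKCi library Gas5 led at 24.0, before Snhg6 at 19.2 and Snhg5 at 12.8. Snhg4 was the lowest of the 8 in both, at 3.17 and 1.07. The listed length, which for the hosts found in GENCODE M21 joins the exons of all annotated transcripts, covers at least 91.3% of the span for Gas5, Snhg1, Snhg4, Snhg5, Snhg8 and Snhg12, against 53.1% for Snhg6 and 42.9% for Snhg15. It can therefore exceed the length of the spliced RNA by different amounts, and the order per kilobase depends on it.

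The share of Gas5 within the group differed between the libraries. All 10 genes together had 3854 counts untreated and 3221 with PKCi (239.5 and 200.4 CPM), and Gas5 made up 33.1% of the first and 45.0% of the second. Without Gas5 the sums were 160 (CON) and 110 CPM (PKCi), a 1.45-fold lower level (95% interval 1.37 to 1.55). The median log2 ratio without Gas5 was −0.55.

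**Figure D3:**
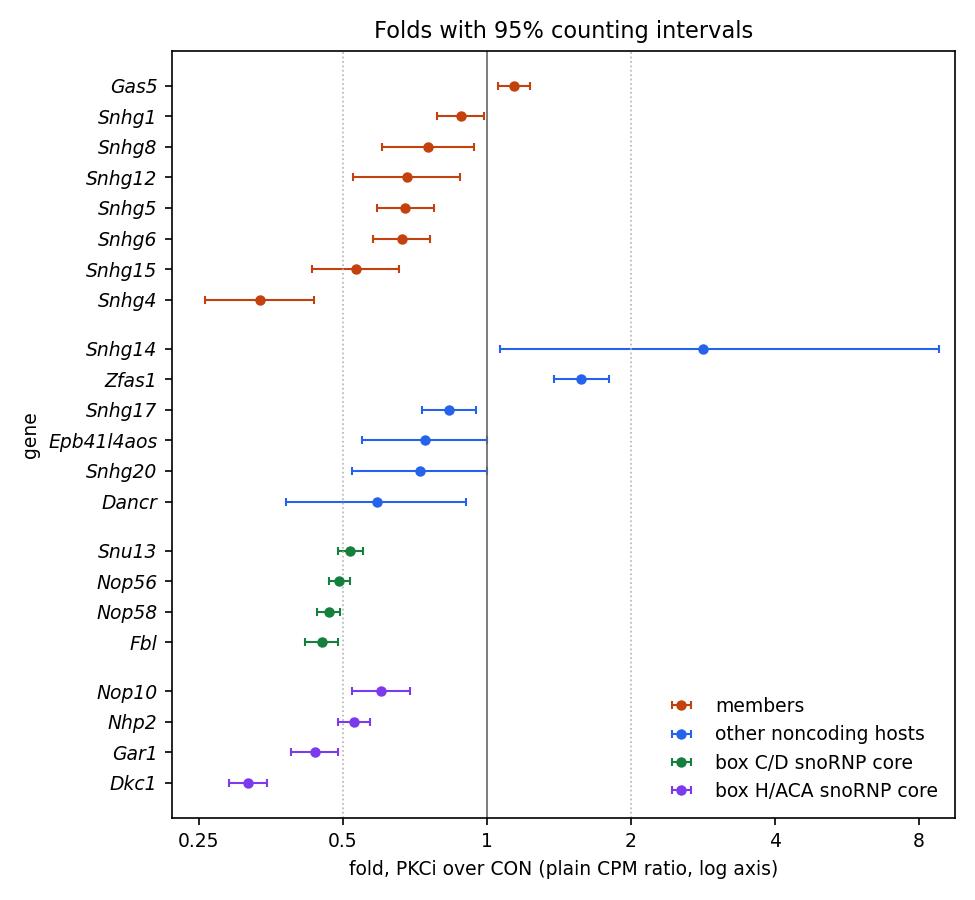
Fold of PKCi over CON (x axis, plain CPM ratio on a log axis; points, genes; bars, exact 95% counting intervals; solid line, no difference; dotted lines, 2-fold) for the 8 measured members, 6 other noncoding snoRNA hosts and the core proteins of snoRNPs. Gas5, Snhg14 and Zfas1 lie above 1, Snhg4 lies below the 2-fold line, and all 8 core protein genes lie between 0.317 and 0.602.

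Other noncoding hosts lay on both sides of 0. Of 12 found in the table, 6 reached 1 CPM, with 4 below and 2 above 0 and a median log2 ratio of −0.31. Zfas1, a TOP-type host of box C/D snoRNAs, had 369 and 581 counts (22.9 and 36.2 CPM) and was 1.58-fold higher (95% interval 1.38 to 1.80). Dancr had 61 and 36 counts and was 1.69-fold lower (95% interval 1.10 to 2.63). Snhg20 had 94 and 68 counts, 1.38-fold lower with an interval that reached 1.00. Snhg14, the long host RNA of the imprinted Prader-Willi region, had 6 and 17 counts (2.84-fold higher, 95% interval 1.07 to 8.79). At 0.373 and 1.06 CPM it was measured through the PKCi library alone, so its direction was fixed by the filter.

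The measured long noncoding RNA genes lay mostly above 0. Of 554 such measured genes, 29.8% had a log2 ratio below 0, and their median was 0.33. Without the members the median over 546 genes was 0.33 as well, and 28.9% were below 0. At least 1.5-fold lower were 10.6% of these 546, and at least 1.5-fold higher were 33.2%. The 7 lower host genes lay opposite to most of these, but nothing is concluded from it, because the filter partly shaped the shares. Gas5, at a log2 ratio of 0.19, lay between the quartiles of the 546 others, −0.11 and 0.72. A gene that reached 1 CPM in the PKCi library alone lay above 0 by the filter, and one in the untreated library alone lay below. How many of the 546 did so was not counted, so these shares partly reflect the filter. The measured members passed 1 CPM in both libraries, so the 546 are not a like background for them.

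Neighbouring genes did not share 1 direction with the hosts. Gas5 overlaps Zbtb37, a zinc finger gene on the opposite strand, by 428 bases of span with 0 shared exon bases, and their starts lie 427 bases apart. Zbtb37 had 351 and 639 counts and was 1.82-fold higher (95% interval 1.60 to 2.08). Snhg1 starts 106 bases from the opposite-strand Slc3a2, the heavy chain of an amino acid transporter, which had 3394 and 3443 counts (1.02-fold, 95% interval 0.968 to 1.07). The interval of Slc3a2 held 1 and that of Snhg1 did not, and the difference between these folds was not tested. Snhg18, at 0, starts 148 bases from Sema5a, a semaphorin gene with 1174 and 948 counts (1.24-fold lower, 95% interval 1.13 to 1.35).

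Farther neighbours of the lower hosts lay on both sides. Matr3, a nuclear matrix protein gene downstream of Snhg4 on the same strand, was at 210 and 150 CPM (1.40-fold lower, 95% interval 1.33 to 1.47), by less than Snhg4. Syncrip, the RNA-binding protein gene next to Snhg5, was at 312 and 183 CPM (1.70-fold lower). Prss12, a serine protease gene that ends near the end of Snhg8 on the opposite strand, was at 30.1 and 56.0 CPM (1.86-fold higher, 95% interval 1.66 to 2.08). Trnau1ap, which faces Snhg12, was at 32.3 and 31.5 CPM, and Sgk3, beyond Snhg6, was at 39.5 and 27.7 CPM. The strand setting of the counting is not given in the sources used here. Without it, reads of opposite-strand partners that overlap, as Snhg6 and Mcmdc2 do over 127 bases, cannot be told apart, and Mcmdc2 had 4 and 6 counts.

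Genes for the proteins that bind snoRNAs had lower levels with PKCi. All 4 measured core genes of box C/D particles were at least 1.5-fold lower and 3 of 4 at least 2-fold, with a median log2 ratio of −1.05. Fbl, the methyltransferase fibrillarin, was at 122 and 55.3 CPM (2.21-fold lower, 95% interval 2.04 to 2.40), and Nop58, Nop56 and Snu13 were 2.14-, 2.03- and 1.93-fold lower. All 4 core genes of box H/ACA particles were at least 1.5-fold lower and 2 of 4 at least 2-fold, with a median of −1.04. Dkc1, the pseudouridine synthase dyskerin, was at 119 and 37.9 CPM (3.15-fold lower, 95% interval 2.87 to 3.46), and Gar1, Nhp2 and Nop10 were 2.29-, 1.89- and 1.66-fold lower. Of 11 assembly factors 8 were at least 1.5-fold lower and none higher, with a median of −0.65, led by Nolc1 (2.48-fold), Ruvbl1 (2.24-fold), Naf1 (2.11-fold) and Ruvbl2 (2.05-fold). The members' median of −0.52 lay nearer to 0 than these 3. All 8 core genes had fold intervals wholly below those of Gas5 and Snhg1.

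Among factors of RNA decay, the members' partners in turnover, the lists differed. Of 13 measured genes of the RNA exosome and exonucleases, 8 (61.5%) were at least 1.5-fold lower and none higher, with a median of −0.76. Among all measured genes, 16.7% were lower and 16.8% higher by that size. Exosc2, Exosc8, the nuclease gene Dis3 and Exosc1 were 2.18-, 2.12-, 2.04- and 1.87-fold lower. Of 17 genes of NMD and exon junctions, 5 (29.4%) were at least 1.5-fold lower and none higher, with a median of 0.02. The 4 largest differences were Magohb (31.7 and 8.46 CPM), Rbm8a (1.75-fold lower), Eif4a3 (1.62-fold lower) and Nbas (1.60-fold lower), of which all but Nbas encode exon junction core proteins. Upf1, the central NMD helicase, was at 187 and 175 CPM. Of 16 messages known as NMD targets, 7 (43.8%) passed 1.5-fold upward and 6 (37.5%) downward, where 16.8% and 16.7% of all measured genes did. The median of the 16 was 0.35, with quartiles of −0.88 and 1.08. The 6 lower were Gadd45b, Tbl2, Srsf2, Srsf7, Srsf3 and Srsf6. Gene counts do not separate the isoforms of a gene, so they give no level for an isoform that NMD removes. Slc7a11, Upp1, Trib3 and Cdkn1a were 5.05-, 4.42-, 2.30- and 2.20-fold higher, and these genes also answer to stress pathways.

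Lists of genes known for TOP messages showed neither the members' median nor that of the snoRNP proteins. Of 79 measured ribosomal protein genes, 4 (5.06%) passed 1.5-fold downward and 1 (1.27%) upward, around a median log2 ratio of −0.01. Over all measured genes, these shares were 16.7% and 16.8%. Rps27a was 2.61-fold higher, and Rps27l, Rps10 and Rps2 were 2.47-, 2.05- and 1.55-fold lower. Ribosomal protein genes have near-identical pseudogenes, so these values are uncertain. Of 16 translation factors and other genes with TOP messages, 2 passed 1.5-fold upward and 4 downward, and the median was 0.16. Tpt1 was at 1587 and 3008 CPM (1.90-fold higher), while Npm1, Eef1d and Hnrnpa1 were 1.77-, 1.70- and 1.69-fold lower. Gas5, which has TOP letters at a listed start, was near the median of this list, and Snhg8, which has them too, was below it at −0.37. Of 17 regulators of TOP messages and mTORC1 genes, 1 (5.88%) was at least 1.5-fold higher, Deptor (7.46 and 12.3 CPM). At least 1.5-fold lower were 2 (11.8%), Cnbp (607 and 384 CPM) and Tial1 (85.6 and 56.6 CPM). Larp1, which binds TOP starts, was at 462 and 308 CPM, just inside that size on the log2 scale.

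Protein-coding genes whose span holds a whole snoRNA gene on the same strand numbered 260, of which 197 reached 1 CPM. This rule does not show that a gene makes the snoRNA, and long spans such as that of Cdh13 (1041189 bases) pass it too. It also takes in Rcc1 and Gm28285, which overlap the members Snhg3 and Snhg4 and hold their Snora genes. Of the 197, the 29 that encode ribosomal proteins had a median of 0.02, with 1 at least 1.5-fold lower (Rps2) and none higher. Rpl17 and Rpl21 were 1.47- and 1.36-fold higher, and Rps12 was 1.44-fold lower. The other 168 had a median of −0.19, with 35 (20.8%) at least 1.5-fold lower and 18 (10.7%) higher. Over all measured genes, these shares were 16.7% and 16.8%. Odc1, the ornithine decarboxylase of polyamine synthesis, was at 736 and 4028 CPM (5.47-fold higher), Cdh13 was 4.77-fold higher, and Mpdz and Dkc1 were 6.33- and 3.15-fold lower. The noncoding members, with 7 of 8 below 0, can be set beside 61.4% below 0 over these 197 genes, which include Rcc1.

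**Figure D4:**
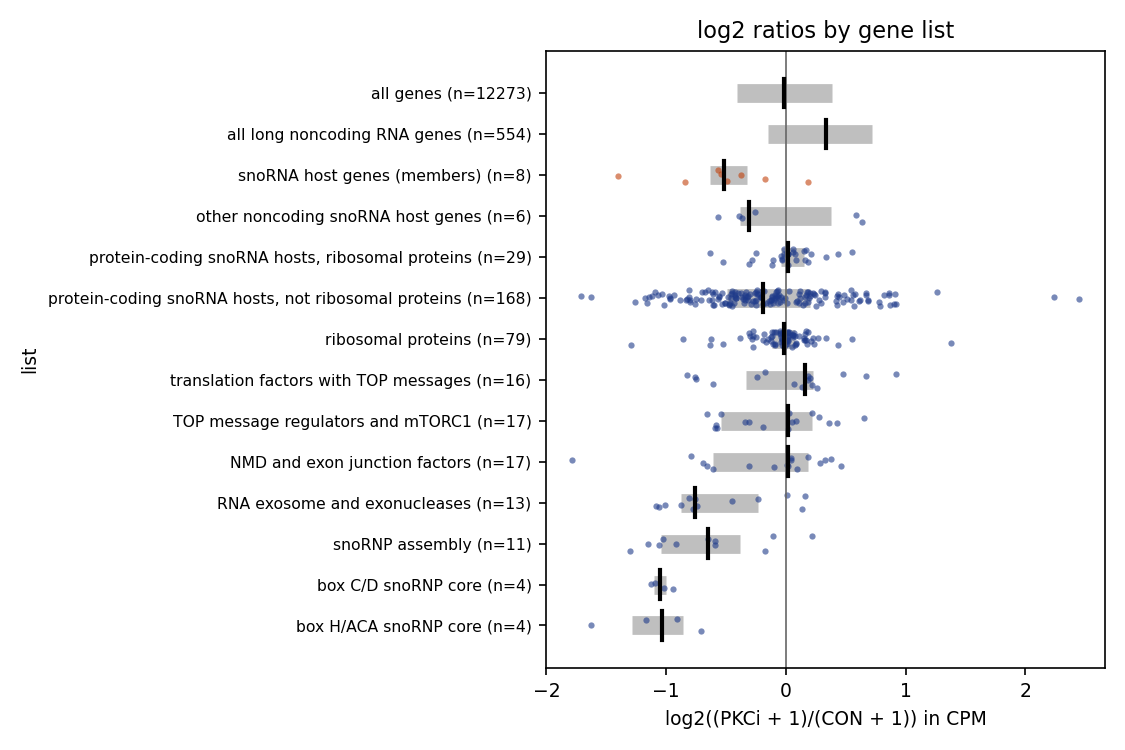
log2 ratio of PKCi over CON on the CPM + 1 scale (x axis) by gene list (black ticks, medians; grey bars, the middle quartiles; points, single genes, not drawn for the lists of all genes and of all long noncoding RNA genes). The members' median of −0.52 lies between the medians near 0 of ribosomal protein genes and the medians of −1.05 and −1.04 of the snoRNP core genes, and long noncoding RNA genes lie at 0.33.

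The glucocorticoid receptor, which human GAS5 RNA can bind, and genes it induces were also listed. The receptor gene Nr3c1 was at 105 and 86.2 CPM. Of 8 measured genes of this list, 6 were at least 2-fold higher and Fkbp5 was lower (70.2 and 37.3 CPM), with a median of 1.19. At least 2-fold higher were 6.53% of all measured genes. Tsc22d3, Cebpd, Dusp1 and Sgk1 were 4.26-, 3.14-, 2.91- and 2.37-fold higher, and growth factors and stress signals induce these genes too. Gas5 itself differed by 1.14-fold in the same libraries, and any link between the RNA and these genes was not tested.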

How the data were processed

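RNA from 1 untreated and 1 PKCi-treated culture of CMT167R cells was sequenced. The labels describe a stranded messenger RNA kit and paired reads, but a further protocol among them tells of retinas and another kit. HISAT2 2.0.5 and the builds GRCm38 and mm10 are named per the submitters' processing notes. How genes were counted, and with which strand setting, is not given in the sources used here. Whole-number counts per gene were deposited by the authors in a table whose name speaks of FPKM. Of its per-sample columns 0 were left unassigned.

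CPM was computed from each library's own total. A gene was measured if either library reached 1 CPM, and log2 ratios had a pseudocount of 1 CPM. Listed gene lengths, deposited in the same table, gave levels per kilobase. Folds have exact conditional binomial (Clopper-Pearson) 95% intervals. Since reads carried no molecular identifiers and are not independent molecules, intervals and floors describe counting error alone. Of 102 symbols at more than 1 gene, the one with most counts was used. Of 14 other noncoding hosts sought, 12 stood in the table. The other lists, 12 in all, were described by counts at 1.5-fold and 2-fold and by medians. Up to 4 genes per list with the largest absolute log2 ratio were named, as were all members and the nearest or overlapping genes with at least 1 CPM. Some genes that this rule names are not reported here. Further genes were named after their values were seen (Upf1, Nr3c1, Fkbp5, Mcmdc2, Gm28285, Krt8, Ptprc and the lower NMD targets). The members and lists were chosen with earlier results of these data known. The procedure was tested on simulated data. Alternatives used edgeR 4.0.16 (TMM) and DESeq2 1.42.0 (size factors), for scaling only. Python 3.11.15, scipy 1.17.1 and pandas 2.3.3 were used.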

Additional observations from a re-analysis of the deposited data

How the results depend on the processing

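Each result was recomputed with TMM scaling, DESeq2 size factors, the total of nuclear protein-coding genes, TPM and a pseudocount of 0.1 CPM, and, for medians and counts, also with a filter of 5 CPM and with none. Of 185 recomputed values for 26 results, 183 did not change sign and stayed within the counting error of the value reported (for a list's median, the median counting error of its genes) or, for counts, within 1.5 times. The other 2 belong to a choice made after seeing the data: without Snhg4, the number of members at least 2-fold lower was 0 and the number at least 1.5-fold lower was 1. Values with no pseudocount and a members' median without Gas5 are among the 185 and were not planned either. With a pseudocount of 0.1 CPM, and with none, the number of members at least 1.5-fold lower was 3 and not 2. The median log2 ratio of the members ranged from −0.56 to −0.43 and that of Gas5 from 0.17 to 0.19. The median of the other noncoding hosts, −0.31 as reported, was 0 with no filter, which brings in genes with 0 counts. The median over all genes moved by less than 0.1 under every scaling tried. No paired analysis was possible because each group has 1 library, and for the same reason no replicate could be left out. Depth limits Snhg3 and Snhg18, which lie under the floor of 3 counts, and the intervals of Snhg8 and Snhg12, which rest on under 200 counts per library. Snhg15 and Snhg4 also rest on under 200 counts in the PKCi library, at 142 and 80.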
